A study of Homo sapiens with 6 samples.

Results

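The 10 genes described here encode 5 S100 proteins (S100A4, S100A6, S100A10, S100A11 and S100A13) and 5 annexins (ANXA1, ANXA2, ANXA4, ANXA5 and ANXA6), and all 10 were found by symbol among the 17579 genes measured. They were chosen by family with the fold changes of this same comparison already known, so their values and calls are a description and not an independent test. RNA was sequenced from LP-1, an established human multiple myeloma cell line that the labels give as B lymphoblasts. Cells had received a virus carrying a guide RNA directed at AURKA, which encodes Aurora A, a kinase of mitosis (labelled Aurora A-KO, 3 libraries), or a virus carrying a guide that targets no gene (labelled NT Control, 3 libraries), and both groups were cultured with 10% serum. The labels do not say whether the cells were a pool or a clone, and do not give the origin of the replicates, so the spread on which p-values rest may be technical. The AURKA-guide replicates 1 to 3 are written A1 to A3 and the control replicates C1 to C3.

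S100 proteins are small calcium-binding proteins of the EF-hand class that work as dimers inside cells and change the activity of the proteins they bind. Annexins bind acidic membrane lipids when calcium rises and take part in membrane repair, vesicle traffic and the anchoring of actin at membranes. The families meet in 1 complex: S100A10, an S100 protein that no longer needs calcium, joins a pair of annexin A2 molecules into a heterotetramer under the plasma membrane, which also binds plasminogen and its activator at the cell surface. Annexin A2 is known in myeloma for the adhesion of plasma cells in bone marrow.

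The 3 genes whose RNA fell were S100A10, S100A11 and ANXA2, and their promoters are shown to set the genes side by side. The RefSeq promoter table (GRCh38.p14, not the hg19 build the submitters used) matched 10 of the 10 genes, and the 250 bases before the start are printed 5′ to 3′ in lower case. The S100A10 window lies at chr1:151993860-151994109, S100A11 at chr1:152037005-152037254 and ANXA2 at chr15:60397987-60398236, each on the minus strand. Capitals mark every match, on either strand, to 5 motifs. The TATA box was searched as TATAAA. The CCAAT box was searched by those 5 letters, the GC box as GGGCGG, the AP-1 site as TGANTCA and the STAT site as TTCNNNGAA. Matches to GGGCGG can overlap each other, as in ANXA2.
S100A10: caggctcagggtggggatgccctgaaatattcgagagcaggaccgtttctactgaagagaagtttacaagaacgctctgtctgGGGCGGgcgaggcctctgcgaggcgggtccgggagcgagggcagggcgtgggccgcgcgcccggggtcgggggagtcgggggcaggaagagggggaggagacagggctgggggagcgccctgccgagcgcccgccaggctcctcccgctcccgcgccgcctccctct
S100A11: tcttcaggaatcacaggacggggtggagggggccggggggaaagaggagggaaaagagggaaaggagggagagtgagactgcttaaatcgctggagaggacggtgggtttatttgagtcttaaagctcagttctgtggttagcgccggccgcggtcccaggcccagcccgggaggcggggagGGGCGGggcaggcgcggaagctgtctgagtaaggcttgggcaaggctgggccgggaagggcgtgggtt
ANXA2: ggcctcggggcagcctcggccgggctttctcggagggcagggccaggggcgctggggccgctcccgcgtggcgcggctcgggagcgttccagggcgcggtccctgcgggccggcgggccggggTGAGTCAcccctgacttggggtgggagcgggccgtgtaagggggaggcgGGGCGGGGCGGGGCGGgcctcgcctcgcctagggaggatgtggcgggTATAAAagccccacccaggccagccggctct

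All 3 windows hold the GC box, which stood in 62.1% of the 15594 promoter windows of tested genes and in 42.6% of all 35116 windows of 27305 genes. ANXA2 alone of the 3 has a TATA box, from base -31 to base -26 counted from the start, against 6.09% of windows of tested genes and 10.7% of all windows. ANXA2 also has an AP-1 match, TGAGTCA, from base -127 to base -121, against 4.42% of windows of tested genes and 6.57% of all. None of the 3 has the CCAAT box (33.1% of windows of tested genes, 32% of all) or the STAT letters (5.29% and 6.57%). The G and C content of the windows was 71.2% for S100A10, 63.6% for S100A11 and 78% for ANXA2, with a median of 64% for tested genes. A match describes these letters only.

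The libraries held 17724174 to 18523594 expected counts; CPM below are these counts scaled to library size, as normalised read counts. AURKA RNA, which checks the labels, averaged 115 ± 3.86 CPM in AURKA-guide and 192 ± 2.85 CPM in control libraries (SD, n = 3 each). The edgeR quasi-likelihood test with Benjamini-Hochberg adjustment at 0.05 called 2.03% of 13138 genes, and 1.07% were called lower in AURKA-guide libraries. The chi-square per gene between replicates was 2.3 to 2.74 among AURKA-guide and 3.08 to 11.1 among control libraries, the highest being between C2 and C3. Leaving out C3 raised the number of genes called to 2034 from 267. Of 10 listed plasma cell markers 9 were in the table, at 10930 to 11350 TPM in sum in AURKA-guide and 10310 to 11860 TPM in control libraries, most of it JCHAIN. CD38, a surface enzyme of plasma cells, rose and averaged 274 CPM in AURKA-guide and 210.3 CPM in control libraries (log2 fold change 0.38, SE 0.0456, edgeR adjusted p = 4.16e-04, higher in 3 of 3 libraries), and SLAMF7 was low at 0.69 CPM in AURKA-guide and 0.784 CPM in control libraries. Of the 9 markers, 7 had a negative log2 fold change. PRDM1, IRF4 and TNFRSF17 were lower in every AURKA-guide library without passing the test. IRF4 averaged 774 CPM in AURKA-guide and 840 CPM in control libraries. TNFRSF17 averaged 123 CPM in AURKA-guide and 134 CPM in control libraries. After a correction for GC content, IRF4 and TNFRSF17 were called lower (edgeR adjusted p = 0.005 and 0.00643). Markers of other cells were low and their sums overlapped between the groups, at 5.92 to 6.92 TPM in AURKA-guide and 5.91 to 6.93 TPM in control libraries for 5 myeloid genes. The sums were 5.84 to 6.46 TPM in AURKA-guide and 5.09 to 6.05 TPM in control libraries for 6 stromal genes, and 4.06 to 4.78 TPM in AURKA-guide and 4.65 to 5.63 TPM in control libraries for 6 epithelial genes. For 7 T and NK genes they were 6.38 to 6.92 TPM in AURKA-guide and 4.57 to 7.75 TPM in control libraries, and for 5 erythroid genes 0.74 to 1.16 TPM in AURKA-guide and 0.54 to 1.48 TPM in control libraries. The part of these markers in any result was not tested. Averages were under 0.1 CPM in both groups for 2 of 5 myeloid genes (CD14, CSF1R), 4 of 6 stromal (COL1A2, COL3A1, DCN, PDGFRB), 1 of 6 epithelial (EPCAM) and 2 of 7 T and NK genes (CD3E, NKG7). Other markers ran from under 1 CPM, as for GNLY and KRT5, to several CPM. The T and NK gene KLRD1 was highest, at 8.8 CPM in AURKA-guide and 8.65 CPM in control libraries. ACTA2 was at 5.19 CPM in AURKA-guide and 4.86 CPM in control libraries, and LYZ at 2.6 CPM in AURKA-guide and 2.21 CPM in control libraries. CD68, at 2.65 CPM in AURKA-guide and 3.39 CPM in control libraries, and KRT18, at 0.836 CPM in AURKA-guide and 1.34 CPM in control libraries, were lower in every AURKA-guide library without passing the test (edgeR adjusted p = 0.326 and 0.24).

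The levels of the 10 genes spanned a wide range. In TPM, the authors' level per transcript length, ANXA2 was highest at 381 ± 6.36 TPM in AURKA-guide and 435 ± 13.6 TPM in control libraries (SD, n = 3 each). S100A11 followed at 311 ± 12.6 TPM in AURKA-guide and 399 ± 23.6 TPM in control libraries, then ANXA5 at 229 ± 1.63 TPM in AURKA-guide and 236 ± 19.6 TPM in control libraries. ANXA6 was at 209.8 ± 4.3 TPM in AURKA-guide and 196.5 ± 2.5 TPM in control libraries, and S100A10 at 136 ± 8.31 TPM in AURKA-guide and 180.5 ± 2.4 TPM in control libraries. ANXA4 and S100A13 were much lower than these. ANXA4 was at 19.9 ± 0.912 TPM in AURKA-guide and 22.3 ± 1.86 TPM in control libraries, and S100A13 at 16.3 ± 0.861 TPM in AURKA-guide and 17.5 ± 0.682 TPM in control libraries. This order was the same in both groups, and library values of neighbours in it did not overlap within a group, although S100A11 reached 421.7 TPM in C2 and ANXA2 was at 422.2 TPM in C1. S100A6, S100A4 and ANXA1 were near 0, between 0.633 and 2.37 TPM on average, and their library values overlapped within each group, so their order is not resolved. The myeloma line thus carried the RNA of annexins A2, A5 and A6 and of S100A10 and S100A11, and little of the S100 genes A4 and A6 or of annexin A1.

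**Figure D1:**
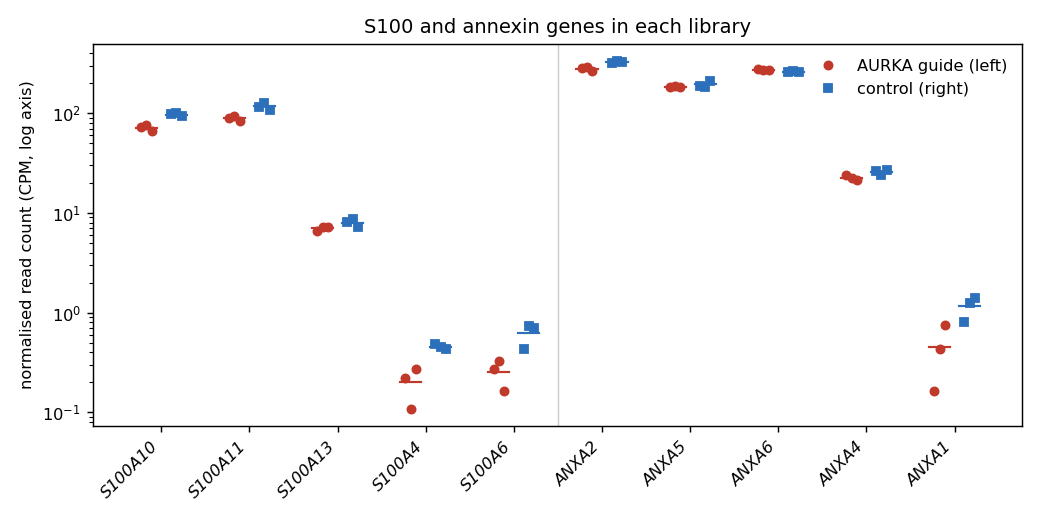
Normalised read count (CPM, log axis) of the 10 genes in each library, with AURKA-guide libraries (red circles) left of control libraries (blue squares) and a bar at each group mean. S100A10, S100A11 and ANXA2 lie lower in all 3 AURKA-guide libraries, while S100A4, S100A6 and ANXA1 lie near or under 1 CPM in most libraries.

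Among the S100 genes, S100A10 and S100A11 fell and S100A13 did not pass the test. S100A10, the partner of annexin A2, had 72.4, 76.4 and 65.7 CPM in A1, A2 and A3, against 97.0, 99.6 and 93.5 CPM in C1, C2 and C3. Every AURKA-guide library lay below every control library. S100A10 thereby averaged 71.5 ± 5.41 CPM in AURKA-guide and 96.7 ± 3.05 CPM in control libraries (SD, n = 3 each), 0.739 of the control level. The log2 fold change was -0.44 (SE 0.0614, 95% interval -0.57 to -0.30, edgeR adjusted p = 0.00155). Leaving out any 1 library kept the S100A10 call, with log2 fold changes from -0.49 to -0.38 and adjusted p from 6.05e-05 to 0.0209. In these bulk samples, fewer cells with the RNA and less RNA per cell cannot be told apart.

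S100A11, which binds annexin A1 and is known for roles in growth control and membrane repair, had 90.03, 94.1 and 84.2 CPM in A1, A2 and A3, against 116.5, 127 and 108 CPM in C1, C2 and C3. The groups did not overlap, and C2 was the highest of the control libraries. S100A11 averaged 89.5 ± 4.95 CPM in AURKA-guide and 117 ± 9.44 CPM in control libraries (SD, n = 3 each), 0.765 of the control level. The log2 fold change was -0.39 (SE 0.0647, 95% interval -0.52 to -0.25, edgeR adjusted p = 0.00504). Without A3 the call was lost (adjusted p = 0.0589, log2 fold change -0.35), and it held without each of the other 5 libraries.

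S100A13, known for the export of growth factors that lack a signal peptide, had 6.62, 7.25 and 7.26 CPM in A1, A2 and A3, against 8.06, 8.63 and 7.3 CPM in C1, C2 and C3. The highest AURKA-guide and the lowest control library nearly met. Its log2 fold change was -0.18 (SE 0.109, 95% interval -0.41 to 0.05, edgeR adjusted p = 0.433), so neither no change nor a fall of the size seen for S100A11 lay outside the interval. S100A13 overlaps S100A1 and CHTOP in RefSeq and its expected counts were partly fractional, so its level is uncertain.

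S100A4, which binds nonmuscle myosin and is known from metastasis, and S100A6, which binds the CACYBP protein, had too few counts for the filter and were not tested. S100A4 had 4, 2 and 5 expected counts in A1, A2 and A3, against 9, 8 and 8 in C1, C2 and C3. S100A6 had 5, 6 and 3 expected counts in A1, A2 and A3, against 8, 13 and 13 in C1, C2 and C3. Both were lower in every AURKA-guide library, on sums of 11 counts in AURKA-guide against 25 in control libraries for S100A4 and 14 in AURKA-guide against 34 in control libraries for S100A6, and with no filter the adjusted p was 0.329 for S100A4 and 0.228 for S100A6 (edgeR). On the log2(FPKM + 1) scale, which shrinks differences of low genes, both passed (limma adjusted p = 0.0358 and 0.0372), with differences of -0.47 and -0.58. With 0.1 added in place of 1, S100A6 passed (limma adjusted p = 0.0386) and S100A4 did not (0.0588). The limma filter asked for 0.5 FPKM in at least 3 libraries of either group. The control libraries, where both genes were higher, could meet that rule alone. Their fall may thus be partly built into their being tested, and these limma passes add nothing to it. S100A4 overlaps S100A5 in RefSeq, and S100A5 was listed at 0 in all libraries.

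Among the annexins, ANXA2 fell and the others did not pass the test. ANXA2 had 283, 289 and 267 CPM in A1, A2 and A3, against 316, 331 and 329 CPM in C1, C2 and C3. The groups did not overlap, and A3 was the lowest library, as it was for S100A10 and S100A11. ANXA2 averaged 279.6 ± 11.3 CPM in AURKA-guide and 325 ± 8.33 CPM in control libraries (SD, n = 3 each), 0.859 of the control level. The log2 fold change was -0.22 (SE 0.0478, 95% interval -0.32 to -0.12, edgeR adjusted p = 0.0276). The ANXA2 call was lost without A1 (adjusted p = 0.0938), A2 (0.0861), A3 (0.245) or C1 (0.0993), with log2 fold changes between -0.24 and -0.19 in those fits. Its expected counts were fractional, so its level is uncertain to that extent. In RefSeq it overlaps the pseudogene RPL36AP44 by position, and whether reads were shared with it or any other gene was not tested.

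ANXA4, a membrane-binding annexin best known from epithelia, had 23.9, 22.3 and 21.5 CPM in A1, A2 and A3, against 26.4, 23.9 and 26.9 CPM in C1, C2 and C3. The groups almost touched, at A1 and C2. The log2 fold change was -0.19 (SE 0.0747, 95% interval -0.35 to -0.03, edgeR adjusted p = 0.228). ANXA5, whose protein binds exposed phosphatidylserine and serves as a stain for dying cells, had 183.5, 186 and 183 CPM in A1, A2 and A3, against 189, 185 and 208 CPM in C1, C2 and C3. The groups overlapped and C3 stood above the rest, and the log2 fold change was -0.08 (SE 0.0528, 95% interval -0.19 to 0.04, edgeR adjusted p = 0.501), or -0.03 without C3.

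ANXA6, a large annexin with a doubled core that links membranes to actin and cholesterol traffic, was the only tested gene of the 10 with a positive difference. It had 280.3, 272 and 268.5 CPM in A1, A2 and A3, against 257, 266.5 and 261 CPM in C1, C2 and C3. The log2 fold change was 0.07 (SE 0.0452, 95% interval -0.03 to 0.16, edgeR adjusted p = 0.496). A fall of the size estimated for ANXA2 lay outside that interval. ANXA1, the glucocorticoid-induced annexin of the resolution of inflammation, had 3.44, 8 and 14 expected counts in A1, A2 and A3, against 15, 22 and 26 in C1, C2 and C3. A3 and C1 nearly met, and the log2 fold change of -1.33 (SE 0.401, 95% interval -2.19 to -0.48) did not pass the test (edgeR adjusted p = 0.12). ANXA1 was over the filter of 0.545 CPM in 1 AURKA-guide and 3 control libraries, so the control group let it be tested.

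**Figure D2:**
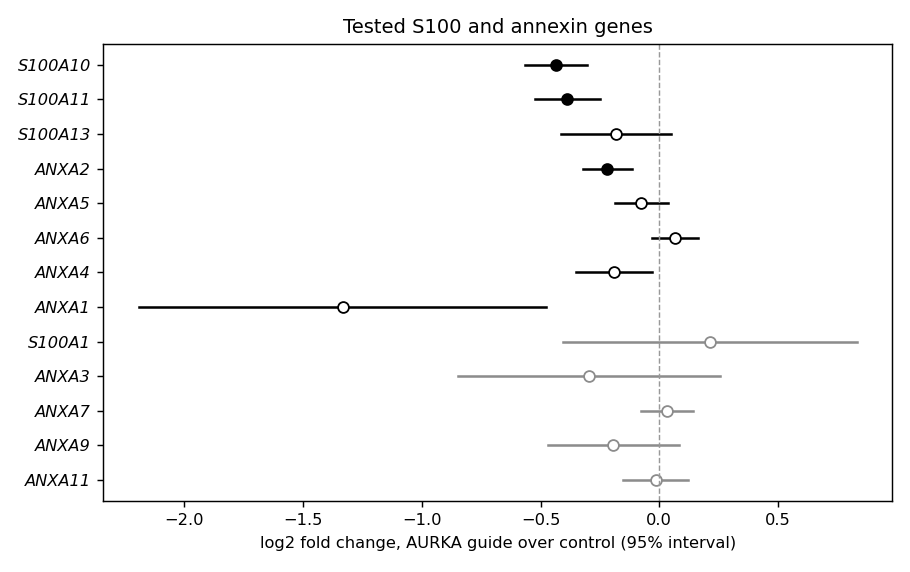
Log2 fold change of AURKA guide over control with its 95% interval (edgeR) for the 8 tested genes of the 10 (black) and the 5 other tested S100 and annexin genes (grey), with filled points for an adjusted p under 0.05. S100A10 (-0.44), S100A11 (-0.39) and ANXA2 (-0.22) are the filled points, and the interval of ANXA6 crosses 0.

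In all, 8 of the 10 genes were tested, 3 were called lower and 0 higher, against 2.03% of all genes tested in either direction and 1.07% as lower. As the choice of genes used this contrast, nothing is read from that count. The median log2 fold change of the 8 was -0.20, against a median of -9.41e-05 over all 13138 genes, and 7 of the 8 were negative. ANXA1 is one of the 8 and was over the filter in 1 AURKA-guide and 3 control libraries. Its fall is thus partly built into its being tested, and it adds nothing to this or the following counts. In 6 of the 8 all AURKA-guide libraries lay below all control libraries, as for 10.2% of tested genes, and in 1, ANXA6, all lay above, as for 10.5%. Transcript GC content was 56.2% for S100A10, 54.2% for S100A11, 46.5% for ANXA2, 42.5% for ANXA4, 39.3% for ANXA1 and 56% for ANXA6. After a correction for GC content, 6 of the 8 were called, against 6.01% of all genes. S100A10 was then at -0.39, S100A11 at -0.36, ANXA2 at -0.24 (edgeR adjusted p = 1.83e-05, 6.46e-05 and 2.9e-04), ANXA4 at -0.24 (0.0311), ANXA1 at -1.40 (0.037) and ANXA6 at 0.11 (0.0482).

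**Figure D3:**
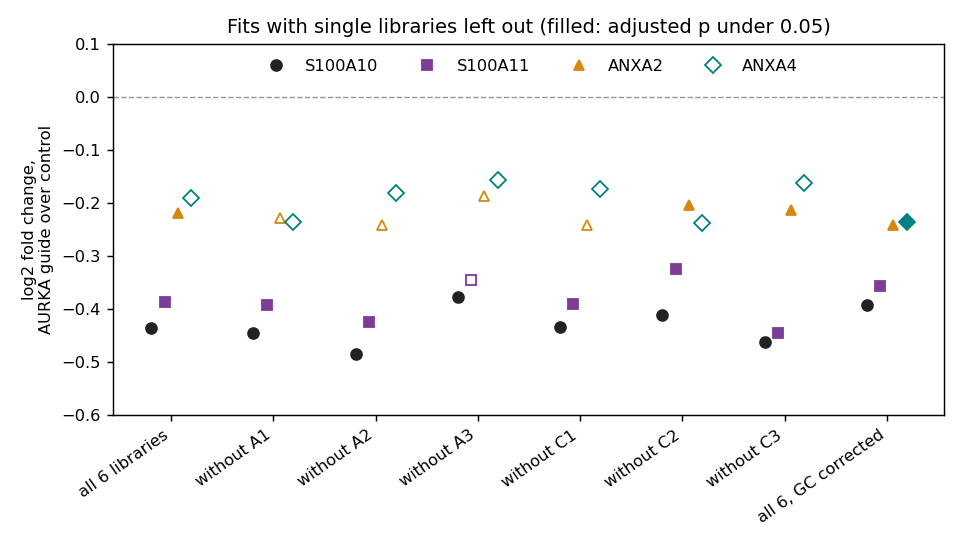
Log2 fold change of AURKA guide over control for S100A10, S100A11, ANXA2 and ANXA4 with all 6 libraries, with each library left out, and with all 6 after the GC correction; filled points have an adjusted p under 0.05. S100A10 stays filled throughout, S100A11 is open without A3, ANXA2 is open without A1, A2, A3 or C1, and ANXA4 is filled only after the GC correction.

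Within each library, the level of S100A10 relative to its partner ANXA2 was also lower with the AURKA guide. The ratio of S100A10 to ANXA2 in TPM was 0.359, 0.372 and 0.34 in A1, A2 and A3, against 0.432, 0.418 and 0.396 in C1, C2 and C3, and the groups did not overlap. The ratio of S100A11 to ANXA2 was 0.816, 0.837 and 0.797 in A1, A2 and A3, against 0.947, 0.97 and 0.834 in C1, C2 and C3, where C3 lay within the AURKA-guide range. The ratio of S100A10 to S100A11 overlapped, at 0.437 ± 0.00918 in AURKA-guide and 0.454 ± 0.0223 in control libraries (SD, n = 3 each). The ratio of ANXA2 to ANXA6 was 1.82 ± 0.0503 in AURKA-guide and 2.22 ± 0.0418 in control libraries (SD, n = 3 each). Summed over the 5 S100 genes, the level was 466 ± 20.9 TPM in AURKA-guide and 601 ± 26.1 TPM in control libraries, and over the 5 annexins 840.5 ± 6.35 TPM in AURKA-guide and 892 ± 34.7 TPM in control libraries (SD, n = 3 each). These ratios and sums follow from the genes chosen and were not tested.

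S100A10 and S100A11 are neighbours among the tested genes of chromosome 1, in the order of the RefSeq annotation, while S100A4, S100A6 and S100A13 lie further on, past the genes of the cornified envelope. The tested genes that flank the pair did not pass the test. THEM4, before S100A10, was at 46.7 CPM in AURKA-guide and 45.02 CPM in control libraries (log2 fold change 0.05, SE 0.0628, edgeR adjusted p = 0.725), and TDRKH beyond it was at 0.03 (SE 0.0584). TCHH, after S100A11, was at 59.6 CPM in AURKA-guide and 57.2 CPM in control libraries (log2 fold change 0.06, SE 0.0577, edgeR adjusted p = 0.662). Next to S100A13, S100A1 was at 0.21 (SE 0.289) and CHTOP at -0.01 (SE 0.0543). On chromosome 15 the tested neighbours of ANXA2 were BNIP2 before it, at 0.09 (SE 0.0674), and ICE2 after it, at 0.11 (SE 0.0607), and neither passed (edgeR adjusted p = 0.533 and 0.372). The tested genes that stand directly beside the pair and beside ANXA2 thus had small positive log2 fold changes with no call.

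The other tested members of the families showed no call. Of 15 further S100 genes, 8 were in the table and 1, S100A1, was tested; S100A2 and S100A5 were listed at 0 in every library. Of 9 further annexins, 6 were in the table and 4 were tested, with a median log2 fold change of -0.10. ANXA7, which promotes membrane fusion, was at 118 CPM in AURKA-guide and 116 CPM in control libraries (log2 fold change 0.03, SE 0.0518, 95% interval -0.08 to 0.14). ANXA11, an annexin that tethers RNA granules to lysosomes, was at 119 CPM in AURKA-guide and 120.4 CPM in control libraries (-0.02, SE 0.0641, 95% interval -0.15 to 0.12). ANXA9 was at -0.19 (SE 0.129) and ANXA3 at -0.30 (SE 0.258), both at few reads. Of these 5, 0 passed by edgeR and 0 had an unadjusted p under 0.05, and of the 4 annexins 0 passed by DESeq2, which gave S100A1 no adjusted p.

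Genes of the proteins that S100 proteins and annexins bind did not pass the test either. Of 21 listed partners 16 were tested, with a median log2 fold change of -0.02. By edgeR 0 were called, and by DESeq2 0 of the 15 it tested. An unadjusted p under 0.05 was found for 3 (HLTF, SRI and IQGAP1), against 16.1% of all genes tested. AHNAK, the giant scaffold that the S100A10 and annexin A2 complex holds at the membrane, was at 1272 CPM in AURKA-guide and 1340 CPM in control libraries (log2 fold change -0.08, SE 0.051, edgeR adjusted p = 0.489). MYH9, the nonmuscle myosin heavy chain bound by S100A4, was at 559.9 CPM in AURKA-guide and 533 CPM in control libraries (0.07, SE 0.053, adjusted p = 0.537, edgeR), and was called after the GC correction at 0.13 (adjusted p = 0.0251, edgeR). SRI, which encodes the calcium sensor sorcin, was at -0.15 (SE 0.0553, adjusted p = 0.198, edgeR), and was called after the GC correction at -0.22 (0.00305). CACYBP, the S100A6-binding protein, was at 453 CPM in AURKA-guide and 447 CPM in control libraries (0.02, SE 0.0591, adjusted p = 0.897, edgeR). IQGAP1, a scaffold of actin that S100 proteins bind, was at 222 CPM in AURKA-guide and 197.5 CPM in control libraries (0.17, SE 0.0512, edgeR adjusted p = 0.12), and passed without C3 (0.0072) and after the GC correction (0.0162).

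Of 14 genes of membrane repair and calpains 10 were tested and 0 were called by edgeR, with a median log2 fold change of -0.08. By DESeq2 0 of the 9 it tested were called. An unadjusted edgeR p under 0.05 was found for 2 (CAPN1 and CAPNS1), against 16.1% of all genes tested. CAPNS1, the shared small subunit of the calcium-activated calpains, was at 288 CPM in AURKA-guide and 312.5 CPM in control libraries (log2 fold change -0.12, SE 0.0483, edgeR adjusted p = 0.249). CAPN2 was at -0.06 (SE 0.0443), and CHMP4B, of the ESCRT-III membrane scission machinery, at 0.01 (SE 0.0464). Of 21 other EF-hand calcium sensors all were tested and 0 were called by either tool, with a median of -0.02. Among them 3 had an unadjusted edgeR p under 0.05 (EFHD2, STIM1 and CIB1), against the same 16.1% of all genes. CALM2 and CALM3, which encode calmodulin, were at 0.10 (SE 0.0649) and -0.05 (SE 0.0479). Without C3, 2 of the 16 partners, 3 of the 10 repair genes and 7 of the 21 sensors tested with all libraries were called, against 15.3% of 13283 genes.

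At the level of transcripts the fall could be read in S100A10 and S100A11, each of which has a single transcript in the deposited data. Their transcript counts are the gene counts again, so this level adds no separate support for the fall. Of the 41 transcripts of the 10 genes, 23 were tested by edgeR and 0 were called, in a fit that called 0.00227% of 43979 transcripts; 4 of the 23 had an unadjusted p under 0.05, against 3.85% of all transcripts tested. By DESeq2, an alternative chosen after seeing the data, 2 were called (S100A10, log2 fold change -0.44, adjusted p = 4.04e-05; S100A11, -0.39, adjusted p = 9.59e-04), against 1.51% of transcripts. ANXA2 RNA was divided by the authors among 3 main transcripts. NM_004039.2 held 46.2% ± 5.49 of the ANXA2 count in AURKA-guide and 43.8% ± 2.76 in control libraries, XM_017022093.1 held 36.1% ± 4.86 in AURKA-guide and 36.8% ± 2.02 in control libraries, and NM_001002857.1 held 15.2% ± 1.69 in AURKA-guide and 17.0% ± 1.74 in control libraries (SD, n = 3 each). These shares overlapped between the groups, and the levels of all 3 were lower on average in AURKA-guide libraries, at 165.6, 158 and 51.4 TPM in that order, against 179, 184 and 65.6 TPM in control libraries. ANXA6 was likewise divided without a shift beyond the spread, with XM_005268432.5 at 68.6% ± 1.47 in AURKA-guide and 69.0% ± 1.27 in control libraries (SD, n = 3 each). The transcript shares of S100A13 ran from 0% to 44.1% between libraries for XM_017002034.2, so its isoforms are not resolved at this depth.

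The authors' deposited tables list S100A10, S100A11 and ANXA2 for the same comparison of AURKA guide and control. They describe the same groups, so they are not independent support. The authors' deposited gene table of 231 genes holds S100A10 (log2 fold change -0.44, q = 4.2e-07), S100A11 (-0.39, q = 3.22e-05) and ANXA2 (-0.22, q = 0.00309). The authors' deposited transcript table also gives a comparison for a guide against NSD2, the histone methyltransferase of the series title, whose libraries were not analysed here; its sign is read the same way as that of the AURKA comparison, on the wording of the headers. Both comparisons are named against the same control and may share it, so they are set side by side without a test of their difference. The authors' deposited transcript table puts S100A10 at -0.44 (q = 1.44e-05) for the AURKA guide and at -0.03 (q = 1) for the NSD2 guide. It puts S100A11, in the authors' deposited values, at -0.39 (q = 5.02e-04) for the AURKA guide and at -0.03 (q = 1) for the NSD2 guide. The authors' values were read only for transcripts that hold on average at least 10% of the count of their gene. Among these, S100A10 and S100A11 were the 2 with a q under 0.05 for the AURKA guide in the authors' deposited table. For the NSD2 guide 0 of them passed in the authors' deposited table. Over all transcripts, whatever their share, 1.55% passed for the AURKA guide and 1.78% for the NSD2 guide. ANXA2 transcript NM_001002857.1 was at -0.39 (q = 0.0583) for the AURKA guide and -0.31 (q = 0.227) for the NSD2 guide in the authors' deposited table, while NM_004039.2 was at -0.14 for the AURKA guide and 0.04 for the NSD2 guide. ANXA6 transcript XM_005268432.5 was at 0.05 for the AURKA guide and 0.18 (q = 0.0776) for the NSD2 guide in the authors' deposited table.

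**Figure D4:**
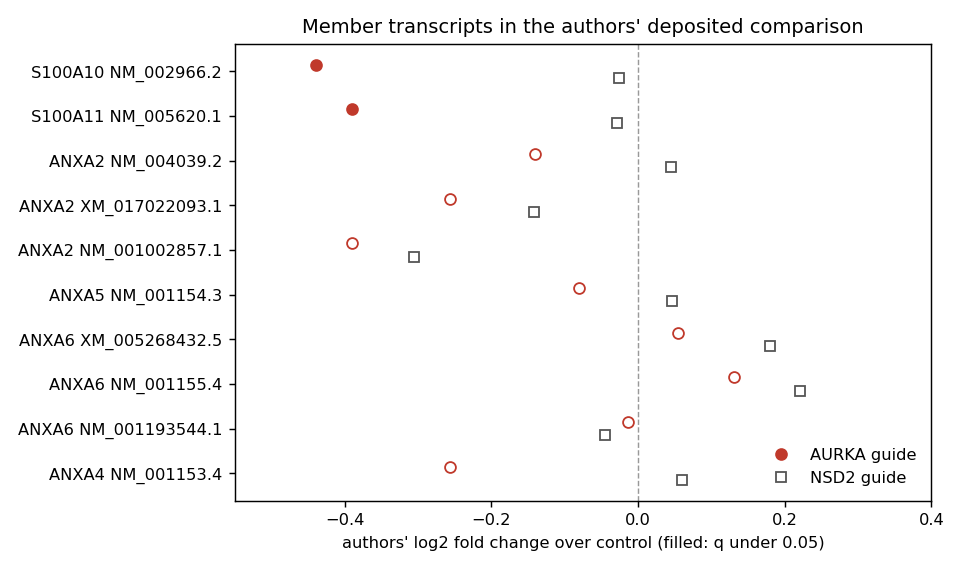
The authors' log2 fold changes over control for transcripts of the 10 genes that hold at least 10% of their gene and reach 10 TPM in control libraries, for the AURKA guide (red circles) and the NSD2 guide (grey squares); filled points have a q under 0.05. S100A10 (-0.44) and S100A11 (-0.39) are filled for the AURKA guide and lie at -0.03 for the NSD2 guide.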

How the data were processed

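Per the labels, RNA was extracted with Trizol and sequenced by the BGISEQ500 protocol from 6 LP-1 libraries, 3 with a guide against AURKA and 3 controls. The submitters' processing notes list the tools BWA, Bowtie2 and RSEM and the build hg19; what each did, with which version and strand setting, is not stated in the labels or headers. The authors deposited expected counts, estimated reads that need not be whole (44.8% of gene values were not). The authors also deposited FPKM and TPM values, which are per length and per library. The authors' deposited comparison tables hold log2 fold changes and q-values, DESeq2 being named per the file headers; their direction was checked on AURKA.

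Rounded expected counts entered edgeR 4.0.16 (R 4.3.3) (filterByExpr with a minimum count of 10, TMM, quasi-likelihood F test, Benjamini-Hochberg over all genes at 0.05). Each SE was derived from the gene's F statistic. Library sizes behind CPM are TMM-scaled. The labels mention no molecular identifiers. Counts totalled 17724174 to 18523594 per library, and the test was tried on simulated data. The genes and lists were chosen with earlier results of these data known. Named are the 10 genes, AURKA, called list genes, the 3 list genes highest in CPM (some genes are not reported here), and the nearest tested neighbours; other genes were named after their values were seen. Alternatives were limma 3.58.1 on log2(FPKM + 1) or log2(FPKM + 0.1) where at least 3 libraries reached 0.5 FPKM, DESeq2 1.42.0, other filters and scalings, a block on replicate number, leaving out each library, and a spline (5 degrees of freedom) on GC content from GENCODE transcripts as an offset, known for 97.5% of tested genes. Symbols came from the deposited table, and 17316 gene IDs matched RefSeq.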

Additional observations from a re-analysis of the deposited data

How the results depend on the processing

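The number of genes called was 267 and lay between 98 and 2034 in the fits that left out 1 library each, the highest without C3; it was 789 after the GC correction and 881 with the GC correction and the replicate block. Of the 10 genes, 3 were called, and the fits without 1 library called 1 to 3 of them. By limma on log2(FPKM + 1), 5 were called (1.7% of 11815 genes). Among these were S100A4 and S100A6, which could enter the limma filter through the control libraries alone. The GC correction called 6, as it did with the replicate block. The partners, 0 of which were called, gave 0 to 2 calls without 1 library each, 3 after the GC correction and 3 with the block as well; membrane repair genes gave 0 to 3 without 1 library; and the other calcium sensors gave 0 to 7 without 1 library, and 1 after the GC correction with or without the block. Among transcripts of the 10 genes, 0 were called by edgeR and 2 by DESeq2. No log2 fold change of the 8 tested genes changed sign under any setting run, where the filter on a mean of 10 CPM left out S100A13 and ANXA1. Same-numbered libraries deviated together with correlations of 0.0514, -0.105 and 0.0951, against -0.206 to 0.166 for libraries of different number. These values give no sign of pairing, but with 3 libraries per group they cannot settle whether the numbers pair the samples. With the replicate block 385 genes and 4 of the 10 were called, ANXA1 being the addition (adjusted p = 0.0474, edgeR). The causes were not tested. Depth limits S100A4, S100A6 and ANXA1, at 2 to 26 expected counts per library.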
